A study of Mus musculus with 16 samples.

Results

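Foxp1, Foxo1, Bach2, Tcf7, Lef1, Satb1, Ets1 and Klf2 encode transcription factors that are active in resting naive T cells, and this account follows 5-hydroxymethylcytosine (5hmC) over these 8 genes. The deposited table of 5hmC regions names, for each region, the gene of the nearest transcript. All regions that it gives to one of the 8 genes were taken, which are 368 of 177720 regions. Satb1 has 127 of them, Foxp1 77, Lef1 48, Bach2 43, Ets1 40, Foxo1 21, Klf2 7 and Tcf7 5. The choice used gene names only and no measured value, but it was made with earlier results of these data known.

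All cells were CD4 T cells of C57BL/6 mice aged 5 to 6 weeks, taken from lymph nodes and spleen. The mice carried a Foxp3-eGFP reporter, so that cells making Foxp3, the lineage factor of regulatory T cells (Treg), are green, and all 4 groups share this genotype. Naive cells and CD4+eGFP+ Treg were sorted directly. Naive cells cultured with TGFβ gave induced Treg (TGFβ iTreg), and the same culture with vitamin C (VitC) and retinoic acid (RA) added gave RA+VitC iTreg. RA and VitC were given together and their effects cannot be told apart, and no cultured group without TGFβ was analysed here. Each group had 2 replicates with a pull-down and an input library each, 16 libraries in all. The labels do not say whether replicates came from separate mice or cultures, so the spread behind each p-value is that between libraries and may be technical only.

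TET enzymes oxidise methylated cytosine to 5hmC, which marks the bodies and enhancers of genes in use. In CMS-IP, bisulfite converts 5hmC to a sulfonated base that an antiserum then pulls down with its DNA fragment. Read counts therefore show how 5hmC-bearing DNA is spread over the genome within a library, not its total amount, and they are not a measure of gene expression. Naive T cells are kept in a resting state by a small set of factors. Foxp1 and Foxo1 are forkhead factors, of which Foxo1 drives the receptors for homing and IL-7, and Klf2 drives the receptors for leaving tissue. Tcf7 and Lef1 encode the TCF1 and LEF1 partners of β-catenin, Bach2 encodes a repressor of effector genes, Satb1 organises chromatin in developing T cells, and Ets1 is needed for T cell survival.

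The most upstream start sites of 7 of the 8 genes, all but Ets1, were overlapped by no 5hmC region of the gene, and 4 of them are shown here. In the table's coordinates (mm9), the most upstream start of Foxo1 is on chromosome 3 at 52072259 and the nearest Foxo1 region is 895 bp away. The start of Lef1 is on chromosome 3 at 130813389, 2303 bp from the nearest Lef1 region, that of Satb1 on chromosome 17 at 51972615, 999 bp away, and that of Klf2 on chromosome 8 at 74842961, 738 bp away. The 250 bases just before the most upstream start of each in RefSeq (assembly GRCm38.p6, a newer build whose coordinates are not those of the table) are printed because they show the sequence next to starts with no region. They run 5′ to 3′ on the gene's strand, with every CG dinucleotide, the usual site of cytosine methylation in mammals, in capitals.
Foxo1: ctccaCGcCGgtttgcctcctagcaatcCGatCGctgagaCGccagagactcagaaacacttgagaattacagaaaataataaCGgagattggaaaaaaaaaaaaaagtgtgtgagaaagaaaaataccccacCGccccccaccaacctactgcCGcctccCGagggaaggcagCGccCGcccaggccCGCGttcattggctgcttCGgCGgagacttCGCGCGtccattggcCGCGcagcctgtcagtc
Klf2: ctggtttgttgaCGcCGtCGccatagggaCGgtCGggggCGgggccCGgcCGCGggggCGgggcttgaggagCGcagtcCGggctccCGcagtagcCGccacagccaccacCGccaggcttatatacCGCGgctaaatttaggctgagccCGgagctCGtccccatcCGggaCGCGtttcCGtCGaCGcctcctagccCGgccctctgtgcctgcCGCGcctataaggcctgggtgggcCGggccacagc
Lef1: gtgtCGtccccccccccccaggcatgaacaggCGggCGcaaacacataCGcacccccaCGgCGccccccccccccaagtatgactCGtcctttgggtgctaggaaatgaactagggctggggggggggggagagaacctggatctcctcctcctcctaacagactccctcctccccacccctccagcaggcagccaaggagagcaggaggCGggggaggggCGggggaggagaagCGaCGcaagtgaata
Satb1: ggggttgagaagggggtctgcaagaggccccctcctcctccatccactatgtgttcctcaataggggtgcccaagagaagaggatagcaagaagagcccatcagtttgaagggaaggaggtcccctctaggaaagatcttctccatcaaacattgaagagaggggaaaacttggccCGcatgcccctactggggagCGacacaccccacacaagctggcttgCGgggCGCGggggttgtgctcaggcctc

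The Klf2 window (GRCm38.p6, chr8:72318812-72319061, plus strand) holds 29 CG and the Foxo1 window (chr3:52268087-52268336, plus strand) 20. The Lef1 window (chr3:131110047-131110296, plus strand) holds 11 and the Satb1 window (chr17:51833291-51833540, minus strand) 5. The window of another Satb1 start, at 51832647, holds 41 (chr17:51832648-51832897, minus strand), so the printed one does not stand for all Satb1 starts. The median over all 32851 RefSeq windows of this length is 6, and 92.1% of them hold at least 1 CG (the letters CG read the same on both strands). Windows were matched by symbol for 7 of the 8 genes. Over the transcripts of the 8 genes that are named with a region, a region assigned to the same gene overlapped 7 of 24 start sites (29.2%). Over such transcripts of all genes, a region of any gene overlapped 4560 of 30023 (15.2%). The overlapped ones of the 8 genes were 4 of Foxp1 and 1 each of Bach2, Satb1 and Ets1, and only that of Ets1 is the most upstream start of its gene.

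The 8 genes carried a larger share of the pull-down reads than of the input reads in every group. They held 1.39% and 1.4% of the reads of the naive pull-downs, 1.16% in both Treg libraries, 1.01% and 1.07% with TGFβ alone, 1.34% and 1.31% in RA+VitC iTreg, and between 0.726% and 0.76% of the input reads. By pull-down reads over all assigned regions, among 15544 gene symbols, Foxp1 ranked 1, Bach2 2, Satb1 4, Lef1 5, Foxo1 24, Ets1 51, Tcf7 698 and Klf2 1296. Such sums depend on the length of DNA covered, which was 577 kb for Foxp1 and 37.7 kb for Klf2. The regions had a median width of 1709 bp, against 745 bp over the whole table, and 73.4% of them lay between genes, against 37.5%. Bach2 holds the widest region of the table, region 28 at chr4:32345584-32474440, which spans 128857 bp of its 5′ end, exons and introns (regions are numbered here along the chromosome within each gene).

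Between 1648804 and 9731897 reads per pull-down fell in regions, and between 1028822 and 1563165 per input. Pull-down over input reads was lowest in TGFβ iTreg (1.49 and 1.72) and 3.14 to 6.39 elsewhere. TGFβ iTreg also had the fewest pull-down reads, so its values have the widest counting error. The pull-down over input was thus lower in both kinds of iTreg than in the sorted cells. Its part in differences between either kind of iTreg and the other groups was not tested. Of the Treg markers 6 of 6 were higher in Treg than in naive cells, with Foxp3 itself at a log2 fold change of 1.25 ± 0.11 (SE). In RA+VitC iTreg 6 of 6 were higher (Foxp3 1.42 ± 0.13) and in TGFβ iTreg 5 of 6, where Foxp3 itself did not pass the test (0.19 ± 0.21, adjusted p 0.49). Summed over the 6 of 7 CD8 and NK cell markers with regions, the level was 648 and 653 CPM (counts per 1e6 reads of the TMM-scaled library) in naive cells, 551 and 554 in Treg, 429.5 and 457 in TGFβ iTreg and 355 and 345 in RA+VitC iTreg, with none at 0. Satb1 stood in the same order of groups, and the part of other cells in that result was not tested. The 6 of 8 T cell markers with regions summed to 884 and 900 CPM in naive cells, 714 and 743 in Treg, and 448 to 637 in both kinds of iTreg. The 7 B cell markers summed to 153 to 185 CPM in all libraries. The 7 myeloid markers summed to 253 and 247 CPM in naive cells, 209 and 216 in Treg, 290 and 307 in TGFβ iTreg and 193 and 217 in RA+VitC iTreg. No marker of either list was at 0. In TGFβ iTreg 3 of 7 B cell and 3 of 6 tested myeloid markers were higher than in naive cells, and 1 of each was lower. Over all gene sums 23.4% were higher and 18.2% lower there.

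Levels of the genes were compared as CPM per kb of assigned region. In naive cells Lef1 stood highest at 10.1 ± 0.0625 CPM per kb (SD, n = 2, as for all means here), followed by Foxo1 at 8.81 ± 0.187, Bach2 at 7.36 ± 0.0300, Satb1 at 7.05 ± 0.0405, Foxp1 at 5.96 ± 0.102, Tcf7 at 5.33 ± 0.0241, Ets1 at 5.11 ± 0.0394 and Klf2 at 4.56 ± 0.0915. No neighbours in this order overlapped between their libraries. In Treg the order was Lef1 at 7.63 ± 0.0521, Foxo1 at 7.58 ± 0.00724, Bach2 at 6.58 ± 0.0295, Tcf7 at 5.32 ± 0.135, Satb1 at 5.19 ± 0.114, Foxp1 at 5.08 ± 0.0209, Ets1 at 4.51 ± 0.0787 and Klf2 at 4.31 ± 0.00752 CPM per kb, and the libraries of Tcf7 and Satb1 overlapped. In TGFβ iTreg the genes lay closer together, from Lef1 at 6.50 ± 0.465 and Bach2 at 6.45 ± 0.588 to Satb1 at 4.32 ± 0.321 CPM per kb, and several neighbours overlapped. In RA+VitC iTreg Bach2 led at 10.2 ± 0.315, then Foxp1 at 8.91 ± 0.347, Lef1 at 7.94 ± 0.593 and Foxo1 at 7.12 ± 0.106, and Satb1 was last at 3.38 ± 0.115 CPM per kb. Tcf7 at 6.22 ± 0.358 and Klf2 at 6.04 ± 0.0941 overlapped there, with Ets1 at 5.74 ± 0.0178 below both.

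**Figure D1:**
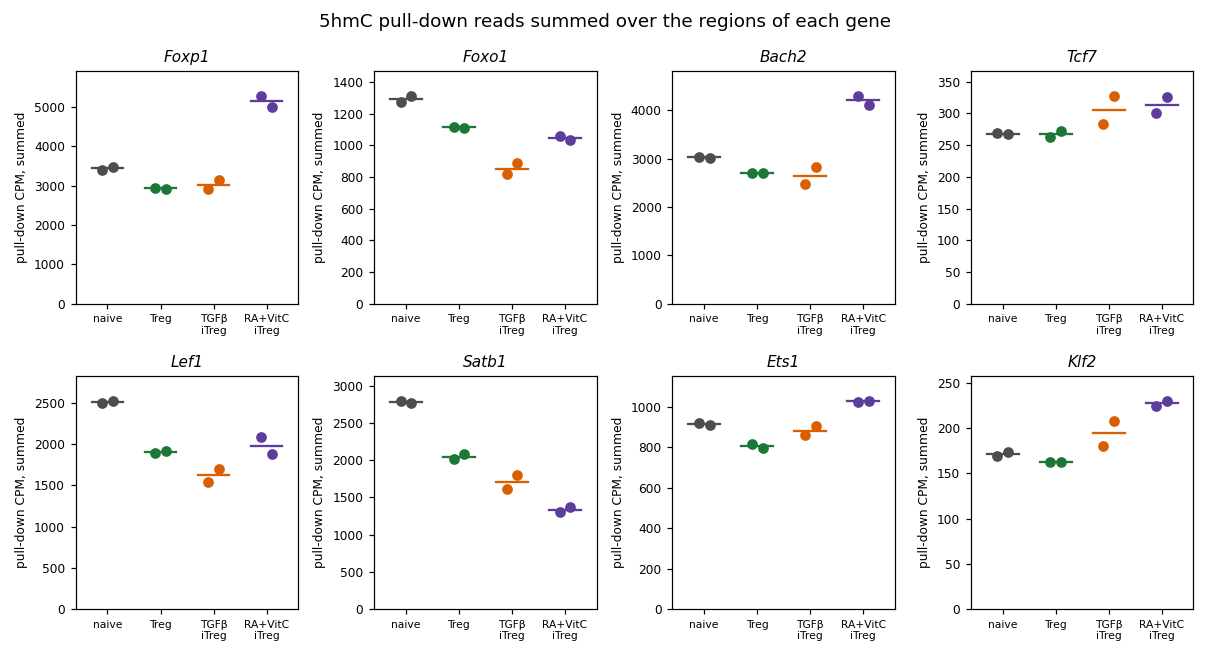
Pull-down reads summed over all regions of each gene, in CPM (vertical axes, from 0) for the 2 libraries of each of the 4 groups (points) with the group mean (line). Foxp1 and Bach2 stand highest in RA+VitC iTreg, Foxo1, Lef1 and Satb1 stand highest in naive cells, and Satb1 is lowest in RA+VitC iTreg.

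In sorted Treg, none of the 8 genes had more 5hmC than in naive cells, and 6 had less. Summed over its regions, 5hmC fell on Satb1, Lef1, Foxp1, Foxo1, Ets1 and Bach2, by 0.16 to 0.44 on the log2 scale. Klf2 (log2 fold change -0.08 ± 0.06, SE) and Tcf7 (-0.003 ± 0.05) did not pass the test. The background in this comparison was 20% of gene sums higher and 19.2% lower. Region by region, 22 of 333 tested regions were higher and 86 were lower, 6.61% and 25.8%, against 13% and 10.1% of all tested regions. Without naive replicate 1, naive replicate 2 or Treg replicate 2, 55, 50 or 52 regions were lower, and without either naive replicate 14 were higher, while 6 sums were lower without any one library. All these tests are edgeR's quasi-likelihood F test on the 8 pull-downs, with Benjamini-Hochberg adjustment over all gene sums or all regions and a threshold of 0.05. Of the 368 regions, 333 had enough reads to be tested, and a region could pass that filter through the group where it is high.

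In TGFβ iTreg, 5hmC was lower than in naive cells on Satb1, Lef1, Foxo1, Bach2 and Foxp1, by 0.18 to 0.70 on the log2 scale, and higher on Tcf7 and Klf2, by 0.20 and 0.19. The direction of Tcf7 turned, to -0.23 here and to -0.21 in RA+VitC iTreg, when a region inside the gene to which the table gives no symbol was added. The background was 23.4% of gene sums higher and 18.2% lower. Both rises missed the threshold without TGFβ iTreg replicate 2 (log2 fold change 0.08 for Tcf7 and 0.075 for Klf2), and that of Klf2 also without either naive replicate (0.17 and 0.21). Of the 333 regions, 31 were higher and 97 lower, 9.31% and 29.1%, against 13.1% and 8.28% of all regions. Without TGFβ iTreg replicate 1, 63 were lower, and without replicate 2, 17 were higher and 61 lower. In RA+VitC iTreg the genes moved apart: Foxp1, Bach2, Klf2, Tcf7 and Ets1 rose, by 0.17 to 0.58 on the log2 scale, and Satb1, Lef1 and Foxo1 fell, by 0.31 to 1.06. The background was 29.2% of gene sums higher and 26.6% lower. Of the 333 regions, 80 were higher and 129 lower, 24% and 38.7%, against 21.9% and 15.8% of all regions. TMM scaling matters here: with plain library sizes every log2 fold change of RA+VitC iTreg shifts by -0.155 for gene sums and by -0.23 for regions against naive cells, by -0.107 and -0.192 against TGFβ iTreg, and by -0.162 and -0.254 against Treg. Then 61 regions were higher and 168 lower, and Tcf7 (0.07) and Ets1 (0.01) no longer passed.

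The kinds of iTreg differed on 7 of the 8 genes. With RA and VitC added, Foxp1, Bach2, Foxo1, Lef1, Klf2 and Ets1 were higher than with TGFβ alone, by 0.22 to 0.76 on the log2 scale, Satb1 was lower by 0.36, and Tcf7 did not pass the test (0.03 ± 0.07). The background was 12.4% of gene sums higher and 10.7% lower. Of the 333 regions, 50 were higher and 9 lower, 15% and 2.7%, against 4.6% and 1.98% of all regions. With plain library sizes 39 were higher and 28 lower, and without TGFβ iTreg replicate 2 or RA+VitC iTreg replicate 1, 1 was lower. Klf2 missed the threshold without TGFβ iTreg replicate 1 (0.13), without RA+VitC iTreg replicate 2 (0.21) and with plain library sizes (0.115). These 3 comparisons with naive cells share the naive libraries, and this one shares both kinds of iTreg with them. The kinds of iTreg also differed in pull-down over input reads (1.49 and 1.72 with TGFβ alone, 3.88 and 3.14 with RA and VitC), and the part of this was not tested.

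Against sorted Treg, TGFβ iTreg had more 5hmC on Klf2, Tcf7 and Ets1 and less on Foxo1, Satb1 and Lef1, with a background of 20.8% of gene sums higher and 15.1% lower. Without TGFβ iTreg replicate 2 none of the 3 was higher by the test (0.15, 0.08 and 0.09), Tcf7 also missed it without Treg replicate 1 (0.17), and Ets1 without either naive replicate (0.13 both) or Treg replicate 2 (0.11). Of the 333 regions, 31 were higher and 48 lower, against 9.55% and 5.88% of all regions, and 21 or 28 were lower without TGFβ iTreg replicate 1 or 2. RA+VitC iTreg had more than Treg on Foxp1, Bach2, Klf2, Ets1 and Tcf7 and less on Satb1 (without either TGFβ iTreg replicate also on Foxo1, at -0.09; without RA+VitC iTreg replicate 2 more also on Lef1, at 0.14), with a background of 26.6% higher and 23.1% lower. Of the 333 regions, 78 were higher and 80 lower, against 17.8% and 11.4% of all regions, and 44 or 48 were lower without RA+VitC iTreg replicate 1 or 2. With plain library sizes, 59 were higher and 136 lower, Tcf7 no longer passed (0.06), and Foxo1 and Lef1 were lower by the test (-0.25 and -0.105). In the inputs, the same test called 0 of 202 testable regions of these genes in any of the 6 comparisons, where 4 to 17 of the 202 had an unadjusted p under 0.05 per comparison. Over all 44917 input regions tested, 4 (0.00891%) were called.

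**Figure D2:**
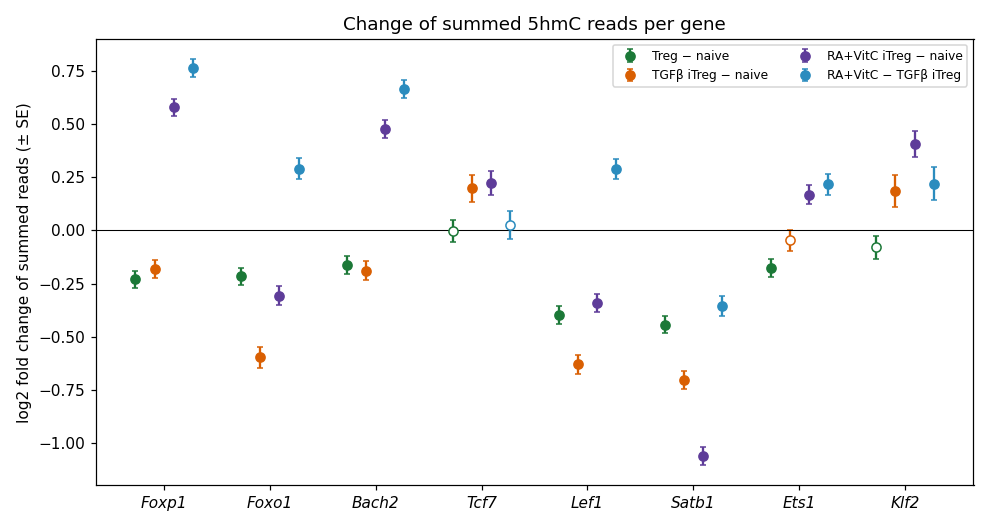
Log2 fold change of the summed reads of each gene (vertical axis, ± SE) in 4 comparisons (colours); filled points passed the threshold of 0.05 after adjustment over all gene sums, open points did not. Satb1 is below 0 in all 4 comparisons, while Foxp1 and Bach2 are below 0 in Treg and TGFβ iTreg and above 0 in RA+VitC iTreg.

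A sum can hide regions that move in opposite directions, so the regions of each gene were tested for unequal fold changes (edgeR's diffSpliceDGE). All 8 genes had unequal change when Treg, TGFβ iTreg or RA+VitC iTreg were set against naive cells and between the kinds of iTreg, where 48%, 53.2%, 66.7% and 17.9% of all symbols with several tested regions did. Without TGFβ iTreg replicate 2, 5 of the 8 had it between the kinds of iTreg. With only regions that overlap a transcript, a smaller set, 5 had it in Treg and in RA+VitC iTreg against naive cells and 4 between the kinds of iTreg. The genes are therefore described region by region, with positions in mm9.

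**Figure D3:**
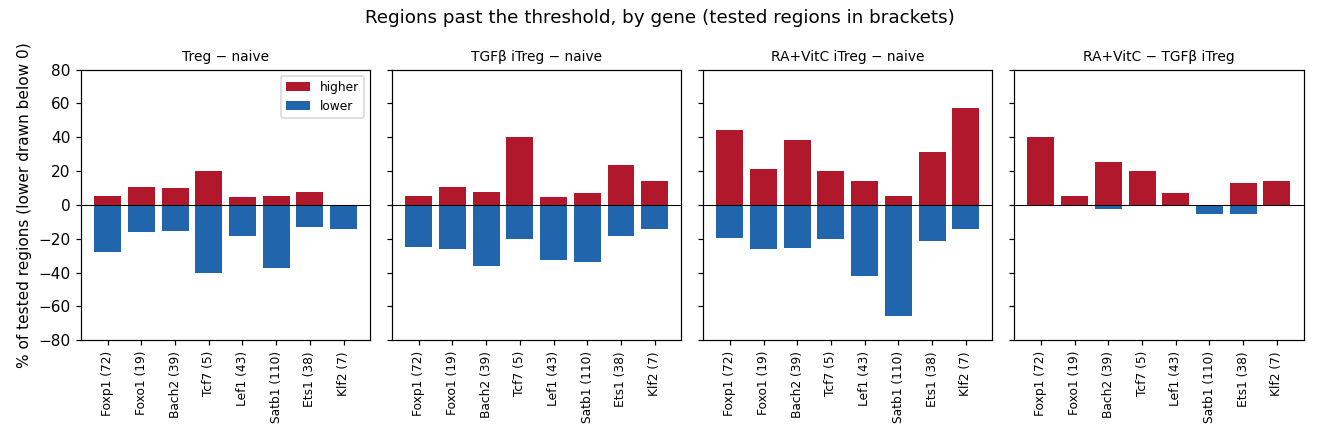
Percent of the tested regions of each gene that passed the threshold (vertical axis, higher drawn above 0 and lower below it) in 4 comparisons, with the number of tested regions in brackets. Satb1 has 65.5% of its 110 regions lower in RA+VitC iTreg than in naive cells, and Foxp1 has 40.3% of its 72 regions higher in RA+VitC than in TGFβ iTreg and 0 lower. Over all tested regions these shares are 15.8% lower in the first comparison and 4.6% higher and 1.98% lower in the second.

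Foxp1, a forkhead repressor that restrains activation, rose with RA and VitC. Its summed level was 3399 and 3482 CPM in the naive libraries, 2942 and 2925 in Treg, 2903 and 3152 in TGFβ iTreg and 5284 and 5001 in RA+VitC iTreg. Both RA+VitC libraries stood above all others, and the Treg values lay inside the TGFβ range. The log2 fold change was 0.58 ± 0.04 (SE, adjusted p 4.7e-27) against naive cells and 0.76 ± 0.04 (adjusted p 1.7e-33) against TGFβ iTreg. Of its 72 tested regions, 32 were higher and 14 lower in RA+VitC iTreg than in naive cells, and 29 were higher and 0 lower than in TGFβ iTreg. Over all regions, 21.9% were higher and 15.8% lower in the first of these comparisons, and 4.6% and 1.98% in the second.

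The rise ran through the gene and ended near its borders. Intronic region 48 (chr6:99331245-99378601), its strongest, held 388 and 395 CPM in naive cells, 280.1 and 281 in Treg, 359.8 and 388 in TGFβ iTreg and 761 and 689.6 in RA+VitC iTreg. It was lower in Treg (log2 fold change -0.48 ± 0.07, adjusted p 2.9e-10) and higher in RA+VitC iTreg (0.89 ± 0.07, adjusted p 1e-35). Intronic region 44 (chr6:99296451-99298344) had the largest rise among regions with a mean of at least 20 reads, from 4.87 and 4.21 CPM in naive cells to 19.3 and 26.0 in RA+VitC iTreg, with 3.57 and 9.98 in TGFβ iTreg. Around the most upstream start, at 99470987 on the minus strand, regions 61, 62 and 63 (chr6:99461551-99476918) went from 12.1 and 18.1, 9.74 and 9.35, and 14.9 and 18.3 CPM in naive cells to 34.6 and 44.2, 26.7 and 29.0, and 57.7 and 47.2 in RA+VitC iTreg. The same regions did not pass the test in Treg or TGFβ iTreg against naive cells, which does not show that they were equal. These 3 were picked with their values in view.

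Beyond the 3′ end levels were lower in RA+VitC iTreg. The 13 regions there together held 44.4 and 42.2 CPM in the naive libraries and 19.0 and 24.8 in RA+VitC iTreg, a sum that was not itself tested. Region 3 (chr6:98790781-98791840), 83.5 kb beyond the 3′ end, had the largest fall, from 7.31 and 6.37 CPM in naive cells to 1.17 and 2.09 in RA+VitC iTreg. TGFβ iTreg held 0.596 and 3.99 CPM there, from 1 and 8 reads, so its libraries spread widely, and its fall (log2 fold change -1.47) did not pass without replicate 1 (-0.77).

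Foxo1, which drives genes for homing and survival of naive cells, fell in every other group. Its level was 1275 and 1314 CPM in naive cells, 1115 and 1113 in Treg, 818 and 889 in TGFβ iTreg and 1057 and 1035 in RA+VitC iTreg, with no overlap between groups. The log2 fold change against naive cells was -0.22 ± 0.04 in Treg (adjusted p 4.6e-06), -0.60 ± 0.05 in TGFβ iTreg (adjusted p 3e-22) and -0.31 ± 0.04 in RA+VitC iTreg (adjusted p 5.1e-10). The gene body carried 74.6% of its reads. Intronic region 7 (chr3:52074275-52131828) held 733 and 745 CPM in naive cells, 582 and 585 in Treg, 356 and 410 in TGFβ iTreg and 602 and 573 in RA+VitC iTreg.

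The region at the Foxo1 promoter passed no test against naive cells. Region 6 (chr3:52061810-52071364), which ends 895 bp before the start site, was at 59.8 and 64.1 CPM in naive cells, 57.1 and 56.7 in Treg, 51.2 and 55.4 in TGFβ iTreg and 56.6 and 53.8 in RA+VitC iTreg. The adjusted p there was 0.21 to 0.32, and the region was picked with its values in view. Beyond the 3′ end, region 21 (chr3:52232257-52234629) rose in RA+VitC iTreg by 1.02 on the log2 scale (adjusted p 1.8e-05), but with all libraries thinned to the depth of the shallowest one its log2 fold change was -0.05 and did not pass. Region 9 (chr3:52164102-52165364) was lower (log2 fold change -1.11, adjusted p 0.0022), and missed the threshold without naive replicate 2 (-0.82) or RA+VitC iTreg replicate 1 (-1.06).

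Klf2, which drives receptors for trafficking, had the smallest number of reads. Its level was 169 and 174 CPM in naive cells, 163 and 162 in Treg, 181 and 208 in TGFβ iTreg and 225 and 230 in RA+VitC iTreg, with no overlap between groups. The rise in RA+VitC iTreg was 0.41 ± 0.06 (log2, adjusted p 2.9e-09). In RA+VitC iTreg its region 7 and its promoter region passed the test in opposite directions. Region 7 (chr8:74844008-74858361) covers the gene's 3′ part but lies mostly beyond the transcript's end at 74845553. It held 76.5 and 81.6 CPM in naive cells and 130.4 and 133 in RA+VitC iTreg (log2 fold change 0.73 ± 0.09, adjusted p 2e-15). Region 6 (chr8:74839771-74842223), at the promoter, held 18.6 and 15.1 CPM in naive cells, 12.1 and 17.4 in Treg, 9.53 and 6.99 in TGFβ iTreg and 9.67 and 9.87 in RA+VitC iTreg. It was lower than in naive cells in TGFβ iTreg (log2 fold change -1.03 ± 0.26, adjusted p 0.00085) and in RA+VitC iTreg (-0.77 ± 0.20, adjusted p 0.00054). Region 6 was picked with its values in view. The lowest fold change by the rule for named regions was that of upstream region 4 (chr8:74828371-74829882), at -0.83 ± 0.37, which did not pass the test (adjusted p 0.064).

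Tcf7, the gene of TCF1, changed little in sum but strongly inside. Its level was 269 and 267 CPM in naive cells, 263 and 272 in Treg, 283 and 328 in TGFβ iTreg and 300.1 and 326 in RA+VitC iTreg. The sorted cells overlapped, as did the kinds of iTreg. Intronic region 1 (chr11:52079975-52093777) held 24.9 and 24.0 CPM in naive cells, 46.4 and 48.6 in Treg, 67.3 and 86.8 in TGFβ iTreg and 102 and 109 in RA+VitC iTreg. No groups overlapped, and all 4 steps passed the test, with a log2 fold change of 0.96 ± 0.11 in Treg, 1.67 ± 0.13 in iTreg with TGFβ alone and 2.11 ± 0.11 in RA+VitC iTreg against naive cells and 0.44 ± 0.12 (adjusted p 0.0063) between the kinds of iTreg. The last of these missed the threshold without TGFβ iTreg replicate 1 (0.31), without RA+VitC iTreg replicate 2 (0.435) and with plain library sizes (0.25).

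The promoter and the upstream DNA of Tcf7 gave other values. Region 2 at the promoter (chr11:52097003-52103145) held 44.4 and 47.3 CPM in naive cells, 36.6 and 40.5 in Treg, 25.6 and 32.9 in TGFβ iTreg and 36.3 and 39.8 in RA+VitC iTreg. Upstream region 3 (chr11:52103412-52122429) had 123 and 119 CPM in naive cells and 98.3 to 111 in the other libraries. Upstream region 4 (chr11:52123123-52127004), picked with its values in view, held 23.5 and 21.8 CPM in naive cells, 21.3 and 24.8 in Treg, 29.2 and 35.4 in TGFβ iTreg and 23.4 and 28.1 in RA+VitC iTreg, and passed the test as higher in TGFβ iTreg against naive cells (log2 fold change 0.53 ± 0.17, adjusted p 0.011). A further region lies inside the Tcf7 transcript, over its 3′ part (chr11:52062116-52079004), but the table gives it no symbol, so it is not among the 368. It fell from 185 and 193 CPM in naive cells to 121.5 and 120.1 in Treg, 75.7 and 89.3 in TGFβ iTreg and 89.1 and 88.2 in RA+VitC iTreg, with log2 fold changes of -0.65, -1.19 and -1.09. With that region added, an alternative chosen after its values were seen, the level of Tcf7 was 461 and 466.9 CPM in naive cells, 390.4 and 397.4 in Treg, 364.7 and 420.9 in TGFβ iTreg and 388.5 and 413.8 in RA+VitC iTreg. Tcf7 then was lower than in naive cells in all 3 groups, with log2 fold changes of -0.24 ± 0.05 (adjusted p 8.2e-06), -0.23 ± 0.06 (adjusted p 0.00044) and -0.21 ± 0.05 (adjusted p 0.00019). The direction of the Tcf7 sum in both kinds of iTreg therefore turns with this 1 region.

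Lef1, the gene of the related factor LEF1, was lower in every other group than in naive cells. Its level was 2502 and 2524 CPM in naive cells, 1896 and 1915 in Treg, 1540 and 1704 in TGFβ iTreg and 2088 and 1878 in RA+VitC iTreg. All naive values lay above all others, and the Treg values lay inside the RA+VitC range. The log2 fold changes against naive cells were -0.40 ± 0.04 in Treg (adjusted p 2.1e-15), -0.63 ± 0.05 in TGFβ iTreg (adjusted p 1.3e-25) and -0.34 ± 0.04 in RA+VitC iTreg (adjusted p 3.8e-12).

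Adjacent regions of Lef1 moved in opposite directions. Region 46 (chr3:130820679-130911125), which covers most of the gene over 90447 bp, held 1463 CPM in both naive libraries, 1012 and 1037 in Treg, 778 and 947 in TGFβ iTreg and 1335 and 1149 in RA+VitC iTreg. Its fall in RA+VitC iTreg (log2 fold change -0.24) missed the threshold without RA+VitC iTreg replicate 2 (-0.10). Region 45 (chr3:130817365-130820463), just before it and closer to the 5′ end, held 1.80 and 1.75 CPM in naive cells, 15.7 and 17.5 in Treg, 16.1 and 13.0 in TGFβ iTreg and 21.7 and 16.7 in RA+VitC iTreg. It was 9.30-fold higher in Treg (log2 fold change 3.22 ± 0.22, adjusted p 8e-44), 8.05-fold in TGFβ iTreg and 10.75-fold in RA+VitC iTreg. The naive libraries had 14 and 17 reads there, and the Treg libraries 123 and 148. Region 48 (chr3:130913900-130938007), at the 3′ end, fell from 260.1 and 272 CPM in naive cells to 117 and 115 in TGFβ iTreg and 146 and 144 in RA+VitC iTreg, and was picked with its values in view. The 43 upstream regions together held 683 and 698 CPM in naive cells and 590.1 and 557.5 in RA+VitC iTreg. Of the 39 tested 4 were higher and 16 lower, against 26.4% and 16.3% of upstream regions over all genes. Region 8 (chr3:130664170-130668290), in that upstream DNA, had the largest fall in RA+VitC iTreg (log2 fold change -1.35, adjusted p 5.4e-09).

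Bach2, a repressor of effector programmes, stood highest in RA+VitC iTreg and next highest in naive cells, as did Foxp1. Its level was 3034 and 3017 CPM in naive cells, 2695 and 2712 in Treg, 2478 and 2820 in TGFβ iTreg and 4300 and 4117 in RA+VitC iTreg. The RA+VitC libraries stood above all others, and the Treg values lay inside the TGFβ range. The log2 fold change was 0.48 ± 0.04 (adjusted p 1.9e-20) against naive cells and 0.67 ± 0.04 (adjusted p 1.5e-27) against TGFβ iTreg. Region 28, the widest of the table, held 1184 and 1178 CPM in naive cells, 920.5 and 958 in Treg, 883 and 1104 in TGFβ iTreg and 1970 and 1829 in RA+VitC iTreg.

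The DNA upstream of Bach2 did not share the rise in sum. Its 23 upstream regions together held 388 and 389 CPM in naive cells and 377 and 376 in RA+VitC iTreg. Of the 20 tested 4 were higher and 8 lower, against 26.4% and 16.3% of upstream regions over all genes. Region 2 (chr4:32222428-32223404), far upstream of the transcript, rose from 1.15 and 1.34 CPM in naive cells to 7.15 and 13.0 in TGFβ iTreg and 8.50 and 12 in RA+VitC iTreg (log2 fold change 3.01 and 3.0, adjusted p 7.2e-13 and 3.8e-18). Region 14 (chr4:32284729-32286550) was lower in RA+VitC iTreg than in naive cells (log2 fold change -1.60, adjusted p 7.4e-10).

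Satb1, a chromatin organiser with high levels in thymocytes and naive cells, lost the most 5hmC. Its level was 2795 and 2773 CPM in naive cells, 2017 and 2080 in Treg, 1616 and 1795 in TGFβ iTreg and 1302 and 1366 in RA+VitC iTreg, with no overlap between groups. The log2 fold changes against naive cells were -0.44 ± 0.04 in Treg (adjusted p 2.5e-18), -0.70 ± 0.04 in TGFβ iTreg (adjusted p 3.6e-30) and -1.06 ± 0.04 in RA+VitC iTreg (adjusted p 2.9e-48). RA+VitC iTreg also lay below TGFβ iTreg (-0.36 ± 0.05, adjusted p 1.9e-10), while the other 6 genes that passed this test were higher. With only the Satb1 regions that overlap its transcripts the difference was -0.15 and did not pass (adjusted p 0.076). Of its 110 tested regions, 72 were lower and 6 higher in RA+VitC iTreg than in naive cells, against 15.8% and 21.9% of all regions.

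The loss covered the gene and its surroundings. Region 48 (chr17:51871261-51916537), the strongest, over the 3′ part of the gene, held 703 and 682 CPM in naive cells, 419.5 and 461 in Treg, 210.3 and 282 in TGFβ iTreg and 226 and 245 in RA+VitC iTreg. Region 56 (chr17:51973614-51987060), just upstream of the gene, fell from 116 and 113 CPM in naive cells to 45.4 and 50.5 in RA+VitC iTreg, and was picked with its values in view. Of the 66 tested upstream regions 49 were lower and 0 higher in RA+VitC iTreg, and of the 35 tested downstream regions 20 were lower and 0 higher. Over all genes, 16.3% of upstream regions were lower and 26.4% higher, and 16.8% and 24.6% of downstream ones. Region 19 (chr17:51672666-51677231), 198 kb beyond the 3′ end, had the largest fall among regions with a mean of at least 20 reads (log2 fold change -1.95, adjusted p 8.6e-15).

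A short stretch at the 5′ end went the other way. Regions 50 to 55 (chr17:51954038-51970253), which lie in the first part of the transcript behind its most upstream start, had almost no reads in naive cells and gained reads in all other groups. Region 50 held 0.641 and 0.822 CPM in naive cells, 4.86 and 4.96 in Treg, 11.9 and 18.5 in TGFβ iTreg and 14.9 and 16.7 in RA+VitC iTreg. Region 52 (chr17:51961084-51964580) held 0.513 and 0.925 CPM in naive cells, 10.3 and 11.2 in Treg, 20.9 and 22.4 in TGFβ iTreg and 18.2 and 17.6 in RA+VitC iTreg. Its log2 fold changes were 3.83 ± 0.30 in Treg (adjusted p 1.8e-34), 4.83 ± 0.34 in TGFβ iTreg (adjusted p 1.6e-42) and 4.55 ± 0.31 in RA+VitC iTreg (adjusted p 1.2e-46).

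The naive count behind these values is small. Region 52 had 4 and 9 reads in the naive libraries, 81 and 95 in Treg, 35 and 45 in TGFβ iTreg and 62 and 59 in RA+VitC iTreg. Regions 53 and 54 had 0 and 1 read each in the naive libraries, so no fold is given for them, and they had 20 and 23 reads and 5 and 11 reads in RA+VitC iTreg. All 6 regions were called higher than in naive cells in each of the other groups, and none passed the test between the kinds of iTreg (adjusted p 0.42 to 0.97). These 6 were picked with their values in view, apart from region 52, which the rule for named regions gave.

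**Figure D4:**
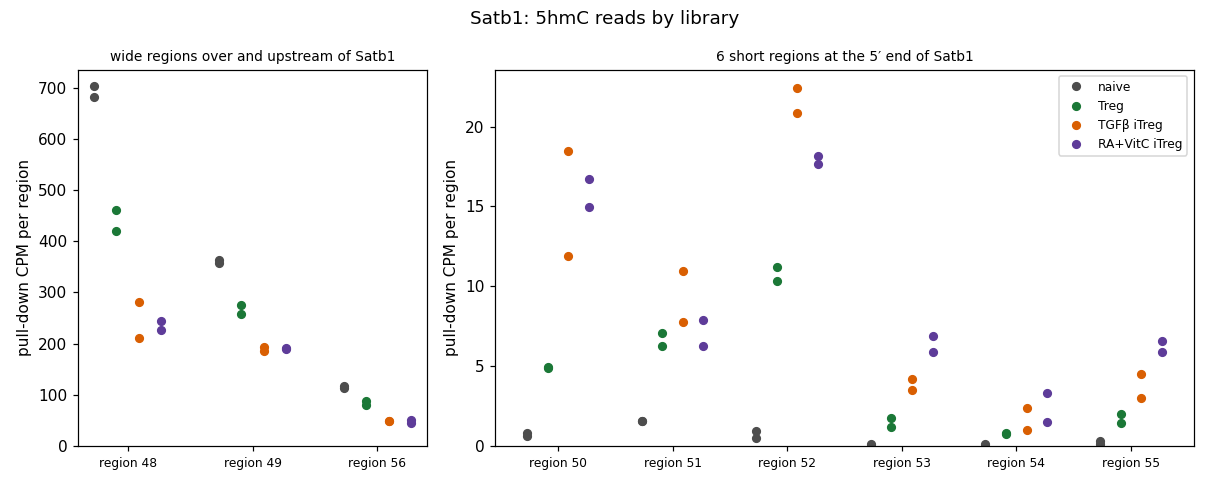
Pull-down CPM of each library (points, colours by group, vertical axes from 0) in wide Satb1 regions 48, 49 and 56 (left) and in the 6 short regions 50 to 55 between them (right). The wide regions are highest in the naive libraries, and the short ones are lowest there.

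Ets1, an ETS factor of T cell survival, had the smallest changes in sum of the 8 genes in the kinds of iTreg against naive cells, though not in Treg. Its level was 919 and 909 CPM in naive cells, 817 and 797 in Treg, 862 and 904 in TGFβ iTreg and 1024 and 1029 in RA+VitC iTreg. The log2 fold change was -0.18 ± 0.04 in Treg (adjusted p 0.00022), -0.05 ± 0.05 in TGFβ iTreg (adjusted p 0.45) and 0.17 ± 0.04 in RA+VitC iTreg (adjusted p 5e-04), and the last was 0.01 and did not pass with plain library sizes. The 3′ part of the gene separated Treg from the rest: region 21 (chr9:32531415-32555166) held 177 and 173 CPM in naive cells, 103 and 98.0 in Treg, 180.5 and 229 in TGFβ iTreg and 207 and 213 in RA+VitC iTreg.

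Several Ets1 introns gained 5hmC in cultured cells. Intronic region 17 (chr9:32515183-32516725) held 1.92 and 2.47 CPM in naive cells, 2.81 and 2.24 in Treg, 18.5 and 19.5 in TGFβ iTreg and 15.2 and 14.7 in RA+VitC iTreg. It was 8.47-fold higher in TGFβ iTreg (adjusted p 1.3e-23) and 6.66-fold higher in RA+VitC iTreg (adjusted p 2.1e-23) than in naive cells, and higher in both than in Treg (adjusted p 2.9e-21 and 9.6e-21). Treg and naive cells did not differ there by the test (adjusted p 0.75). Next to it, region 15 had 1 read in each naive library, 3 and 1 in Treg, 14 and 8 in TGFβ iTreg and 3 and 5 in RA+VitC iTreg. Region 12 (chr9:32466111-32479610), near the 5′ end, rose most with RA and VitC, from 55.3 and 47.8 CPM in naive cells and 69.7 and 70.8 in TGFβ iTreg to 152 and 140.5 (adjusted p 7.4e-17 between the kinds of iTreg). Beyond the 3′ end, region 33 (chr9:32611063-32612770) was lower in RA+VitC iTreg than in naive cells (log2 fold change -2.03, adjusted p 1.4e-07). Regions 12 and 15 were picked with their values in view.

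**Figure D5:**
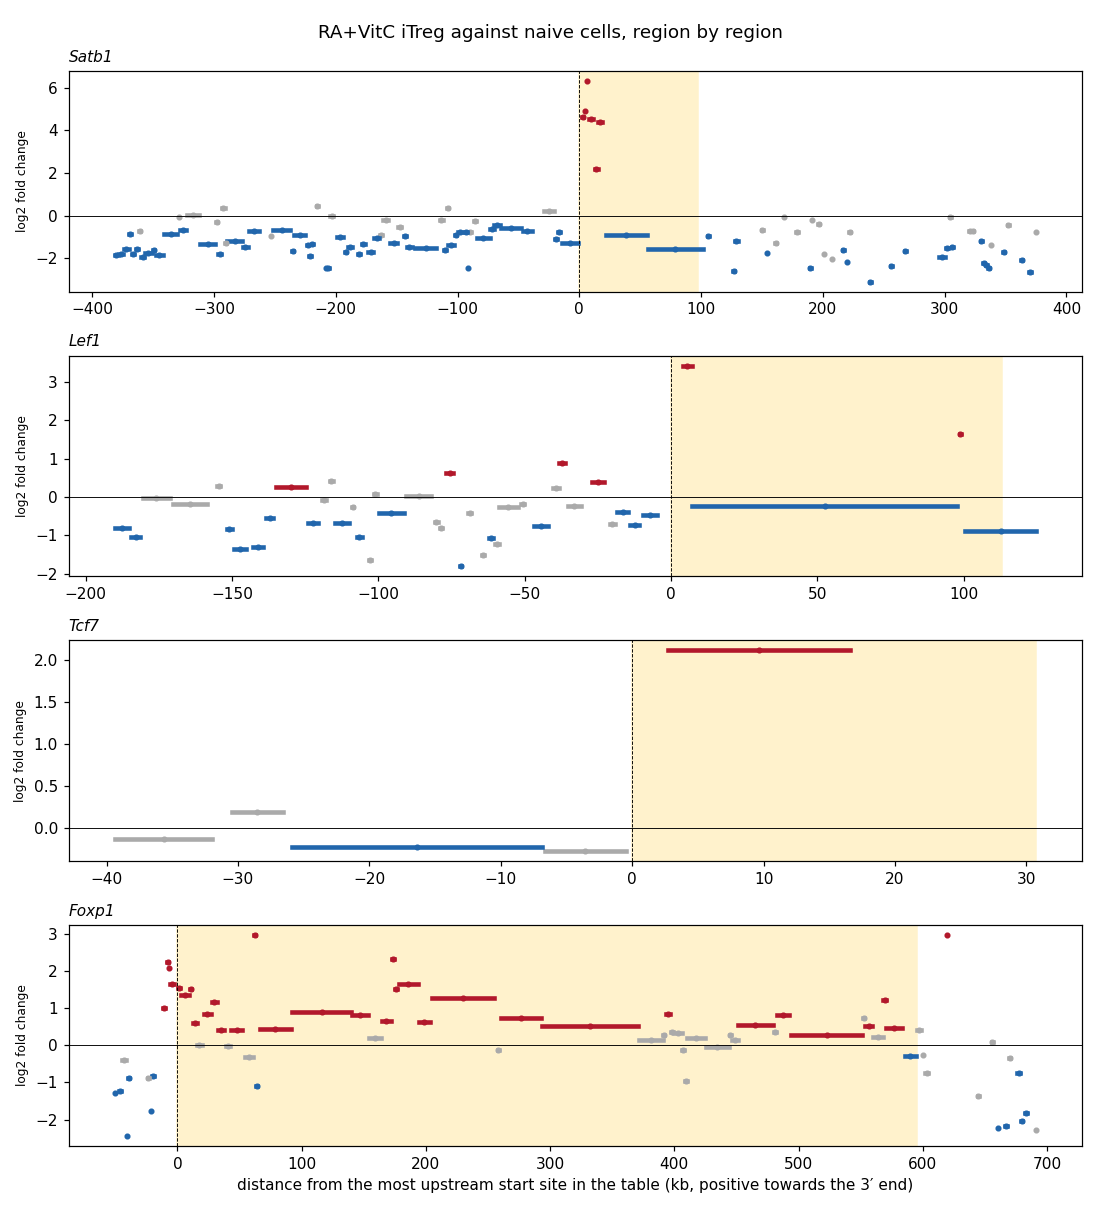
Log2 fold change of RA+VitC iTreg against naive cells (vertical axes) for each tested region of Satb1, Lef1, Tcf7 and Foxp1, drawn over its width at its distance in kb from the most upstream start site (dashed line); shading marks the transcript, red and blue mark regions past the threshold and grey the others. In Satb1 a group of short regions next to the start is above 0 while the regions around it are below 0, and in Foxp1 most regions inside the transcript are above 0.

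Over the 8 genes pooled, more gene-body regions rose than fell in RA+VitC iTreg, while more upstream and downstream regions fell than rose. Of 79 tested regions in gene bodies 45 were higher and 7 lower than in naive cells, while of 156 tested upstream regions 18 were higher and 81 lower and of 75 tested downstream regions 5 were higher and 35 lower. Over all tested regions of the table with a symbol, 20.2% of those in gene bodies were higher and 15.3% lower, 26.4% and 16.3% of those upstream, and 24.6% and 16.8% of those downstream. The median log2 fold changes of the 8 genes' regions were 0.54, -0.72 and -0.96, and those over all genes -0.05, 0.01 and -0.04. Satb1 supplies 66 of the upstream and 35 of the downstream regions, and Foxp1 42 of those in gene bodies, 21 of them higher. Not every gene followed the pooled counts. In gene bodies Foxo1 had 0 higher and 1 lower, and Lef1 2 and 2. Upstream, Klf2 had 3 higher and 0 lower, Ets1 2 and 1, and Foxo1 1 and 0. Regions of 1 gene are not independent. Gene bodies here take in the whole of a region that overlaps a transcript, such as Klf2 region 7, which lies mostly beyond the 3′ end. They leave out regions that touch a promoter or 5′ UTR, such as Satb1 region 48. Of 23 of these tested, 12 were higher and 6 lower, against 19.9% and 14.5% over all genes. Summed gene-body levels (not tested) fell from naive cells to RA+VitC iTreg for Foxo1 (959 to 781 CPM) and Lef1 (1734 to 1416). Those of the other genes rose.

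Over the 8 pull-down libraries, the genes whose summed log2 CPM varied most alike were, for Foxp1, Bach2 (r = 0.99), Tbcd and Dym, and for Bach2, Dym (r = 0.997), N4bp2 and Tbcd. For Foxo1 they were Cd6 (r = 0.997), Cotl1 and Ctnnb1, for Lef1 Cd247 (r = 0.99), Galnt6 and Actn1, and for Satb1 Mfsd4b1 (r = 0.99), Nsg2 and Pde4d. For Ets1 they were Grap2 (r = 0.99), Adcy7 and Zfp217, for Klf2 Chd2 and Gimap3, and for Tcf7 Cd79b (r = 0.98), Rrm1 and Stk40. These are among the highest of 8166 symbols with a mean of at least 100 reads, over libraries that share depth and groups, and are given as a description. Between members, r was 0.94 for Foxo1 with Lef1 and -0.57 for Foxp1 with Satb1.

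Related genes were read from lists. Of 28 other regulators of quiescence, 27 could be tested, and 7 rose and 5 fell in Treg, 7 and 9 in TGFβ iTreg and 12 and 5 in RA+VitC iTreg against naive cells, where 20% and 19.2%, 23.4% and 18.2%, and 29.2% and 26.6% of all gene sums were higher and lower. The list had medians of -0.002, -0.06 and 0.09 (log2) against 0, -0.02 and -0.02 over all gene sums. With plain library sizes the medians in RA+VitC iTreg shift by -0.155, which turns the sign of the list's 0.09. Klf6, a growth-restraining zinc finger factor, rose by 1.60 ± 0.08 with TGFβ alone and 1.54 ± 0.07 in RA+VitC iTreg. Runx3, a Runt factor, rose by 0.59 ± 0.06 and 0.80 ± 0.05, and Cdkn1b, the cell cycle inhibitor p27, by 0.36 ± 0.11 and 0.65 ± 0.09. Runx1, another Runt factor, fell by 0.37 in TGFβ iTreg and rose by 0.30 ± 0.04 in RA+VitC iTreg. Others fell in TGFβ and RA+VitC iTreg, among them Slfn2 by 0.90 and 0.28, Klf13 by 0.45 and 0.13, and Zeb1 by 0.26 and 0.47. Between the kinds of iTreg 12 of the 27 were higher with RA and VitC and 2 lower, against 12.4% and 10.7% of all gene sums.

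Among 12 genes known as targets of these factors, 1 rose and 7 fell in Treg, where 20% of all gene sums were higher and 19.2% lower. In TGFβ iTreg 3 rose and 4 fell (23.4% and 18.2% of all), and in RA+VitC iTreg 6 rose and 6 fell (29.2% and 26.6% of all). Il7r, the IL-7 receptor chain, fell by 0.66 in Treg and by 0.38 in RA+VitC iTreg. Cd8a, a target of TCF1 and LEF1 in thymocytes, fell by 1.26 in TGFβ iTreg and by 1.48 in RA+VitC iTreg.

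Genes that Bach2 or TCF1 hold down, or that oppose them, gained 5hmC in most tests. Of the 9, 7 rose and 1 fell in Treg, 8 rose and 0 fell in TGFβ iTreg, and 9 rose in RA+VitC iTreg, against 20%, 23.4% and 29.2% of all gene sums higher. The medians of the list were 0.86, 0.91 and 0.68. Bhlhe40, a factor of activated T cells, rose by 1.29 ± 0.07, 2.05 ± 0.09 and 2.27 ± 0.07, and Batf, an AP-1 factor, by 0.92 ± 0.06, 1.04 ± 0.07 and 1.06 ± 0.06. Prdm1, which encodes Blimp-1 and is repressed by Bach2, rose by 0.15 ± 0.05, 0.91 ± 0.06 and 0.57 ± 0.05. The exceptions were Id2, which fell by 0.37 in Treg, Irf4, which stood at 0.11 ± 0.06 in Treg (adjusted p 0.099), and Tbx21, at 0.47 ± 0.21 in TGFβ iTreg (adjusted p 0.063).

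Among 14 family members 13 were tested, and 4 rose and 5 fell in Treg (20% and 19.2% of all gene sums), 3 and 6 in TGFβ iTreg (23.4% and 18.2% of all), and 3 and 5 in RA+VitC iTreg (29.2% and 26.6% of all). Ets2, a relative of Ets1, fell by 0.69 in TGFβ iTreg and by 1.08 in RA+VitC iTreg, and Bach1, a relative of Bach2, by 0.67 and 0.72. Bach2 and Ets1 rose in RA+VitC iTreg, where these relatives fell, and the rise of Ets1 was lost with plain library sizes (0.01). Of the other relatives of Ets1 in the list, Erg and Fli1 also rose in RA+VitC iTreg, by 0.27 and 0.13, and Elf1 fell (log2 fold change -0.15). Among 13 partners, 2 rose and 4 fell in Treg, 3 and 5 in TGFβ iTreg, and 3 and 5 in RA+VitC iTreg, against the same shares of all gene sums. Ctnnb1, which encodes β-catenin, the partner of TCF1 and LEF1, fell by 0.26, 0.62 and 0.38 in Treg, TGFβ iTreg and RA+VitC iTreg.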

How the data were processed

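The authors' deposited table holds raw counts of reads per region for 8 pull-down and 8 input libraries, on mm9. Per the file headers, MACS2 called broad peaks (q of 0.01) whose union forms the regions, each given the symbol of its nearest transcript and the gene parts it overlaps. The submitters' processing notes name MACS2 2.1.0.20151222, SAMtools 1.7, Trim Galore 0.4.2 and bcl2fastq 2.20.0.442. How reads were aligned and counted, and whether peaks came from pooled reads, is not given in the sources used here. The amplicons spiked into the DNA were not used, so values are relative within a library.

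The members and lists were chosen with earlier results of these data known. Counts of the 8 pull-downs were fitted together with edgeR 4.0.16 in R 4.3.3, after TMM scaling and a filterByExpr minimum of 10 reads: 1 term for the group, quasi-likelihood F tests of all 6 pairs of groups, 4 residual degrees of freedom, Benjamini-Hochberg adjustment over 135412 regions or 14952 gene sums, threshold 0.05. Gene sums add all regions of a symbol; 14221 regions have no symbol. CPM use TMM-scaled library sizes. Unequal change among regions was tested with diffSpliceDGE. The same region test ran on the inputs. Regions named per gene are those with the highest mean CPM and with the highest and lowest log2 fold change of RA+VitC iTreg against naive cells among those with a mean of at least 20 reads; others are said to be chosen after seeing their values. The chi-square of replicate pull-downs over its degrees of freedom was 1.12 to 1.23, where 1 is counting error only.

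On simulated data for RA+VitC iTreg against naive cells with a fold of 2, the test recovered 100% of 200 changed gene sums among 14821 tested, 43.1% of 3805 changed regions among 128522, 96% of the 746 whose mean was 50 reads or more, and unequal change in 87% of 200 symbols among 12211. Alternatives covered scaling, DESeq2 1.42.0, filters, depth, groups in the fit, left-out replicates, a replicate block and the assignment of regions. The iTreg titles carry 2 tags that both kinds of iTreg share and whose meaning the labels do not give. The replicate numbers of the iTreg follow these tags. Deviations of same-numbered libraries from their group means correlated at -0.02 (naive with Treg) and 0.01 (both kinds of iTreg) over gene sums. No shared deviation was seen in these correlations, and whether libraries are paired is not known. The chi-square of replicates was taken over regions, so it does not give the replicate spread of gene sums. Some wide regions differed between replicates by more than counting error. Lef1 region 46 had 4558 and 3845 reads in RA+VitC iTreg (1335 and 1149 CPM), but 1463 CPM in both naive libraries. Bach2 region 28 had 1482 and 2212 reads in TGFβ iTreg (883 and 1104 CPM), but 1184 and 1178 CPM in naive cells. The main fit used no pairing. Symbols come from the table; promoter windows were matched to RefSeq by symbol. Values of 2 genes outside the 8 are not reported here.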

Additional observations from a re-analysis of the deposited data

How the results depend on the processing

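Of the calls on the 8 gene sums in the 6 comparisons, none changed with DESeq2's size factors (RLE) in place of TMM, and the 6 falls in Treg against naive cells also held without any 1 library. Whether same-numbered libraries are paired is not known. With the replicate block, against naive cells, 0 sums were higher in TGFβ iTreg (2 without it) and 3 in RA+VitC iTreg (5 without it). With the same block 1 sum was higher in TGFβ iTreg than in Treg (3 without it), and 23 regions (48 without it) were lower. With plain library sizes, sums higher were 1 (TGFβ iTreg against naive), 3 (RA+VitC iTreg against naive) and 1 (TGFβ iTreg against Treg), sums lower were 3 and regions lower 136 (RA+VitC iTreg against Treg), and 28 regions were lower in RA+VitC than in TGFβ iTreg. Log2 fold changes that turned there were those of Tcf7 (0.004 in Treg against naive, -0.079 between the kinds of iTreg), Foxp1 (-0.01, TGFβ iTreg against Treg) and Lef1 (-0.105, RA+VitC iTreg against Treg). With only regions of a mean of at least 50 reads, fewer were tested, and 62 were lower in TGFβ iTreg and 51 higher and 67 lower in RA+VitC iTreg than in naive cells. Then 29 were lower between the kinds of iTreg, 49 higher and 51 lower in RA+VitC iTreg than in Treg, with 2 sums lower, and Tcf7 stood at 0.003 in Treg (0.002 with no filter). Depth limits the region calls: with all libraries thinned to the shallowest, 8 regions were higher and 25 lower in Treg, 62 lower (and 0 sums higher) in TGFβ iTreg and 48 higher and 72 lower in RA+VitC iTreg than in naive cells, 42 lower in RA+VitC iTreg than in Treg, and Foxo1 region 21 stood at -0.049. DESeq2 called 12 regions higher and 29 lower in Treg, 58 lower (1 sum higher) in TGFβ iTreg, 77 lower in RA+VitC iTreg against naive cells, 5 lower between the kinds of iTreg, and 17 and 43 lower in TGFβ and RA+VitC iTreg against Treg. In fits of only the 2 groups compared, 22 regions were lower in RA+VitC than in TGFβ iTreg and 2 sums lower in RA+VitC iTreg than in Treg. With only regions that overlap a transcript, unequal change was called in 5 genes in Treg, 5 in RA+VitC iTreg and 4 between the kinds of iTreg. Then 1 sum was higher in Treg (Tcf7, at 0.99), 1 in TGFβ iTreg, 0 were lower between the kinds of iTreg, Ets1 stood at 0.08 in TGFβ iTreg and Bach2 at 0.04 against Treg. With the region of Tcf7 that has no symbol added, 1 sum was higher in TGFβ iTreg against naive cells, and Tcf7 stood at -0.233 and -0.21 in TGFβ and RA+VitC iTreg.

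Leaving out each library in turn gave 14 to 21 regions higher and 50 to 85 lower in Treg against naive cells, 17 to 32 and 61 to 99 in TGFβ iTreg, 1 to 13 lower between the kinds of iTreg, 20 to 30 higher and 21 to 47 lower in TGFβ iTreg against Treg, and 44 to 78 lower in RA+VitC iTreg against Treg. Sums higher ranged from 0 to 2 in TGFβ iTreg against naive cells and from 0 to 4 against Treg, sums lower from 1 to 2 in RA+VitC iTreg against Treg, and genes with unequal change between the kinds of iTreg from 5 to 8. Log2 fold changes that changed sign were those of Tcf7 (-0.03 to 0.022 in Treg against naive, -0.065 to 0.144 between the kinds of iTreg), Bach2 (-0.128 to 0.056) and Foxp1 (-0.017 to 0.099) in TGFβ iTreg against Treg, and Lef1 (-0.015 to 0.136) in RA+VitC iTreg against Treg; none of these passed the test in the fit of all 8 libraries. Of the recomputed values of named regions 869 kept their direction and call, 1 changed sign (Foxo1 region 21) and the rest lost the call. The cause of these changes was not tested, apart from the fewer regions or reads that a setting leaves.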
